A study of Homo sapiens with 12 samples.

Results

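10 genes of the transcription and RNA processing machinery were followed through 12 RNA-seq libraries of HaCaT cells: MED16, POLR2E, POLR2L, GTF2F1, SUB1, SF3A2, CIRBP, ZFR, EXOSC3 and DROSHA. They are 10 of the 61498 entries of the count tables and 10 of the 563 protein-coding genes in the chromosome stretches where gene names and reads could be matched. They were chosen by name as genes of these processes inside those stretches, with earlier results of the data known. HaCaT is an established line of human keratinocytes, the main cells of the outer skin layer. The libraries came from 4 derivatives: shMLL1, shUTX and shNRF2, which carried short hairpin RNAs that target, in that order, the histone methyltransferase MLL1 (KMT2A), the histone demethylase UTX (KDM6A) and the antioxidant transcription factor NRF2 (NFE2L2), and shControl, with a control hairpin. Each derivative gave 1 library after 24 h with 100 µM hydrogen peroxide (H2O2), 1 after 24 h with 25 µg/mL cerium oxide nanoparticles (CeO2) and 1 untreated. Every derivative thus carries a hairpin, a knockdown is represented by 1 hairpin-carrying line, and the 3 libraries of a derivative differ in treatment. The labels do not say that libraries came from separate cultures, so p-values measure the spread among these libraries.

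RNA polymerase II transcribes protein-coding genes and most microRNA genes. It is loaded at promoters with general transcription factors, and the Mediator complex carries signals from bound activators to it. The transcript is then spliced, bound by RNA-binding proteins and trimmed or destroyed by the exosome, while the Microprocessor cuts microRNA hairpins out of primary transcripts. MLL1 and UTX act on chromatin marks at promoters and enhancers, where Mediator and the polymerase also work.

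The names in the tables needed a check before any gene was read. Of 802 genes that nearly every cell uses, only 158 of the 754 outside 4 stretches on chromosomes 5, 9, 11 and 19 reached 30 CPM (counts scaled to a library total of 1000000), and 229 of the 754 had no count at all. Inside the stretches, which were drawn from these genes, all 48 reached that level, and 65.2% of the 515 other coding genes reached 1 CPM, against 32.6% of 18523 outside. All members lie inside. The 16 keratinocyte markers lie outside, and only 5 of them reached 1 CPM, so the label of the cells could not be checked by name. The markers of fibroblasts, leukocytes and endothelium, all outside too, were below 1 CPM, which for the same reason does not show that such cells were absent. MLANA, the only melanocyte marker inside, averaged 1.44 CPM, and TYR and PMEL, outside, averaged 0 and 0.01 CPM. KMT2A, also outside, was listed at 32.0 to 99.7 CPM in the shMLL1 libraries and at 464 to 494 CPM in the shControl libraries. It was listed at 291 to 339 CPM in the shUTX libraries, below every shControl library, and at 455 to 573 CPM in the shNRF2 libraries. KDM6A and NFE2L2, outside as well, stayed at or below 2.33 CPM in every library. KDM6A was listed at 0 to 0.19 CPM in shUTX, 0.68 to 0.87 CPM in shControl and 0.58 to 0.71 CPM in the other derivatives. NFE2L2 was listed at 0 CPM in every shNRF2 library, 0.14 to 2.33 CPM in shControl and 0.14 to 0.61 CPM in the other derivatives. These are at most 6 counts for KDM6A and 16 for NFE2L2, under unmatched names, so their knockdown could not be checked. Library totals ran from 5388335 to 7670446 counts. The untreated shControl library stood apart: over 345 coding genes of the matched stretches, the deviation of a gene from its mean over the libraries fell with transcript length (Spearman rho -0.55), with a median of 0.42 on the log2 scale for the shortest 115 genes and -0.01 for the longest 115. The untreated shMLL1 library came next (rho -0.39).

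The promoters of 4 members whose level differed between derivatives are shown, because 3 of them (MED16, GTF2F1 and CIRBP) were lower together in shUTX and DROSHA was lower in shMLL1. Each run is the 250 bases before the gene start, 5′ to 3′ on the gene's strand, from RefSeq on GRCh38.p14. Capitals mark GGGCGG (the GC box), CCGGAAG (an ETS motif) and TGACNNNGC (the core of the antioxidant response element that NRF2 binds), searched on both strands.
MED16 (chr19:893188-893437, minus strand): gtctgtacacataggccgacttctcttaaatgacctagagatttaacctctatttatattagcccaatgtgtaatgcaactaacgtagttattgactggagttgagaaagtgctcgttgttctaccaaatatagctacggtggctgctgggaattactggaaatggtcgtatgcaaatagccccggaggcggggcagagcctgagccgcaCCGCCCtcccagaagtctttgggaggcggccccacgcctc
GTF2F1 (chr19:6393165-6393414, minus strand): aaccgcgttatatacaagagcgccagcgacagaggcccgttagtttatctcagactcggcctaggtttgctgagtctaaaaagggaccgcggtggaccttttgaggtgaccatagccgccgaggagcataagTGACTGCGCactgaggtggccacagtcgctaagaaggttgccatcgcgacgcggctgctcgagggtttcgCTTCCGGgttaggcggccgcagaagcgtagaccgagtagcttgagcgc
CIRBP (chr19:1269082-1269331, plus strand): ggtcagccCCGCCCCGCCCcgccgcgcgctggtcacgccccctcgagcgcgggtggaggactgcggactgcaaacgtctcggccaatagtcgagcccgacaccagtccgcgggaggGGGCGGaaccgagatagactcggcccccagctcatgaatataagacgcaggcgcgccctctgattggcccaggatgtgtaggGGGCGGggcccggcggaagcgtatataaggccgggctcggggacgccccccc
DROSHA (chr5:31532094-31532343, minus strand): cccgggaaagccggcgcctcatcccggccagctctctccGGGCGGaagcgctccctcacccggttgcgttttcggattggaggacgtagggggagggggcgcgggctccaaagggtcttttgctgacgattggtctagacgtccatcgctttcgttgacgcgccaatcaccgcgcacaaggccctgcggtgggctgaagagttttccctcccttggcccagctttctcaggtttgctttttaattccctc

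Promoter sequence was matched for 9 of the 10 members, all but SUB1. The GC box was in 7 of the 9, and in 42.6% of all 35116 promoters of the same length. CIRBP had 4 of them, of which one pair shares a base, MED16 and DROSHA 1 each, and GTF2F1 none. The ETS motif was in 2 of the 9 (GTF2F1 and SF3A2), against 8.52% of all promoters, and the antioxidant core was in GTF2F1 and ZFR, against 10.9% of all promoters. The CCAAT box (CCAAT on either strand, not capitalised in the runs) was in 3 of the 9 (MED16, CIRBP and DROSHA), against 32.0% of all promoters. The 3 promoters of the genes that were lower in shUTX differed in their number of CpG pairs. MED16 had 11 in its 250 bases, the median of all promoters, whereas GTF2F1 had 24 and CIRBP 30. MED16 was the only member with TATAAA on either strand, which 10.7% of all promoters hold. Its match lies on the strand opposite to the gene, as TTTATA in the run shown. These matches are descriptions of letters in a window and do not show that a factor binds there.

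All members were well expressed and all passed the filter of 1 CPM in at least 3 libraries, with 797 counts for EXOSC3 in its lowest library and 6274 counts for ZFR in its highest. Divided by transcript length, the mean level ran from 323 CPM per kilobase for SF3A2 and 312 CPM per kilobase for POLR2L down to 80.3 CPM per kilobase for MED16 and 79.0 CPM per kilobase for DROSHA. GTF2F1 (261 CPM per kilobase), POLR2E (256 CPM per kilobase) and CIRBP (213 CPM per kilobase) followed the highest pair. ZFR (167 CPM per kilobase), SUB1 (132 CPM per kilobase) and EXOSC3 (92.5 CPM per kilobase) came next. By the means of the 4 derivatives, whose ranges did not overlap there, the order was resolved between POLR2E and CIRBP, between ZFR and SUB1 and between SUB1 and EXOSC3; the other neighbours in this order did not differ beyond that spread. Whether counting used read strand is not stated by the labels, and reads of overlapping genes on the other strand cannot be told apart. POLR2L overlaps CD151 (792 CPM), SF3A2 overlaps PLEKHJ1 (158 CPM), POLR2E overlaps ARHGAP45 (128 CPM), EXOSC3 overlaps DCAF10 (116 CPM) and TRMT10B (21.4 CPM), and CIRBP overlaps CIRBP-AS1 (13.8 CPM), so these 5 levels are uncertain. Reads of processed copies elsewhere in the genome could also be counted under a member, and this was not tested.

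**Figure D1:**
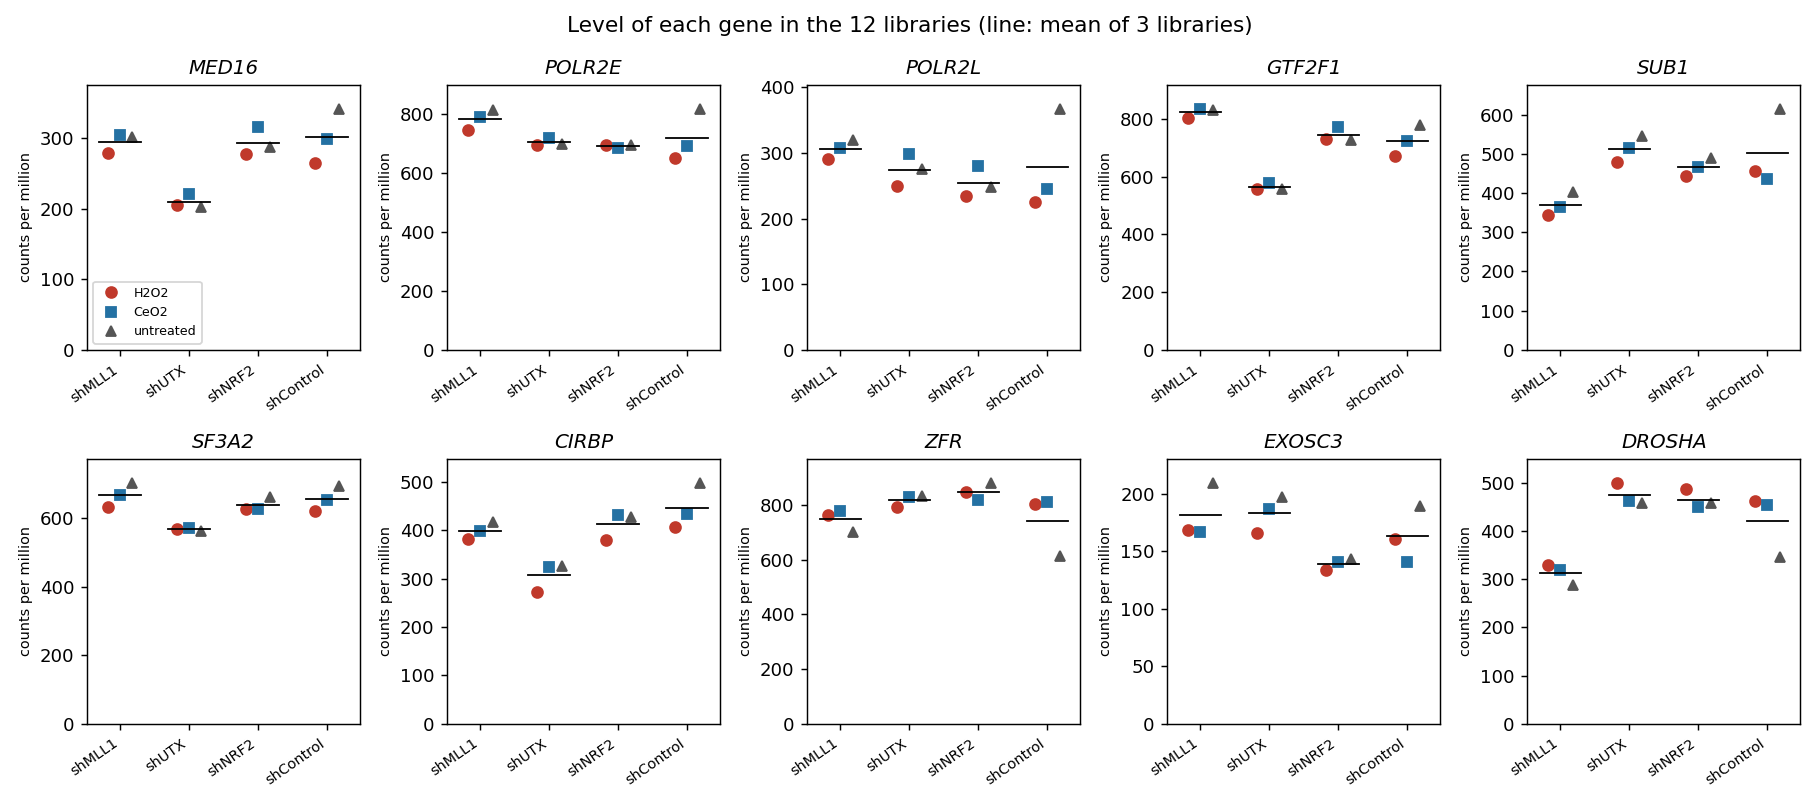
Level of each member in the 12 libraries, in CPM, with shMLL1, shUTX, shNRF2 and shControl from left to right; symbols give the treatment and the line is the mean of the 3 libraries. DROSHA and SUB1 are lowest in shMLL1, and MED16, GTF2F1 and CIRBP are lowest in shUTX. The untreated shControl library is the highest of all 12 for MED16, POLR2E, POLR2L, SUB1 and CIRBP and the lowest for ZFR.

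In cells with the hairpin against MLL1, 2 of the 10 members were lower than in shControl cells and none was higher (edgeR's quasi-likelihood test, Benjamini-Hochberg adjusted p under 0.05). The genes were DROSHA, the RNase III enzyme of the Microprocessor, and SUB1, which encodes the transcriptional coactivator PC4. Of all 10800 entries tested, 12.2% were called in this comparison, and 6.84% were called lower. Of the 391 coding entries of the matched stretches, 22.3% were called lower, so 2 of 10 is near that share. The members' median log2 change was -0.01, beside 0.01 over all entries tested.

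DROSHA stood at 331 CPM with H2O2, 321 CPM with CeO2 and 289 CPM untreated in shMLL1, against 463 CPM with H2O2, 455 CPM with CeO2 and 347 CPM untreated in shControl. Every shMLL1 library lay below every shControl library. The log2 change was -0.45 ± 0.07 (SE), 1.37-fold lower, with an adjusted p of 0.000869 (edgeR). The call held in all 22 alternative settings, with log2 changes between -0.52 and -0.39.

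SUB1 stood at 344 CPM with H2O2, 365 CPM with CeO2 and 403 CPM untreated in shMLL1, against 456 CPM with H2O2, 435 CPM with CeO2 and 615 CPM untreated in shControl. Here too the groups did not overlap, although the untreated shControl library stood well above the other shControl libraries. The log2 change was -0.46 ± 0.10, 1.38-fold lower, with an adjusted p of 0.00794 (edgeR). Without the untreated shMLL1 library the adjusted p was 0.0578, and without the H2O2 shMLL1 library it was 0.0505 (edgeR).

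GTF2F1, the large subunit of the general factor TFIIF, had all 3 shMLL1 libraries above all 3 shControl libraries in CPM without reaching the threshold. After the scaling used in the test the groups overlapped, with 853 CPM in untreated shControl against 777, 810 and 852 CPM in shMLL1. GTF2F1 stood at 803 CPM with H2O2, 834 CPM with CeO2 and 831 CPM untreated in shMLL1, against 672 CPM with H2O2, 724 CPM with CeO2 and 779 CPM untreated in shControl. Its log2 change was 0.15 with a 95% interval from -0.03 to 0.33. The remaining members had log2 changes between -0.19 (CIRBP) and 0.12 (EXOSC3), with intervals that reached from -0.37 to 0.41. Without the untreated shControl library, 5 members were called in shMLL1: DROSHA and SUB1 again lower, and POLR2L (log2 change 0.38), GTF2F1 (0.25) and POLR2E (0.22) higher. In that setting 18.1% of all entries were called.

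The position of DROSHA and SUB1 on the chromosome moved with these values. Both lie on the short arm of chromosome 5, DROSHA at chr5:31400497-31532196 and SUB1 at chr5:32531633-32604079 (GRCh38, GENCODE 29). Of the 64 other coding genes of at least 5 CPM on this arm that start below 40 Mb, 62 were below 0 in shMLL1 and 52 were called lower, with a median log2 change of -0.52. Of the 18 that start beyond 40 Mb, 4 were below 0 and 2 were called lower, with a median of 0.14. The corresponding median over the other stretches was 0.00 on chromosome 19, 0.04 on chromosome 9 and 0.07 on chromosome 11. The edge at 40 Mb was chosen after the values were seen. In shUTX, 22 of the same 64 genes were below 0 (median 0.12), and in shNRF2 36 were (median -0.03).

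DROSHA and SUB1 were close to their neighbours. The 9 coding genes nearest to DROSHA had a median log2 change of -0.56 in shMLL1, and all were below 0. The 9 nearest to SUB1 had a median of -0.46, the same as SUB1 to 2 decimals. The third member on this arm did not share it. ZFR, a zinc-finger RNA-binding protein that acts in alternative splicing, lies at chr5:32354350-32444761, next to SUB1, and had a log2 change of -0.01, with a 95% interval from -0.18 to 0.16 that does not include the -0.52 median of its 8 nearest genes. ZFR stood at 764 CPM with H2O2, 781 CPM with CeO2 and 704 CPM untreated in shMLL1, against 806 CPM with H2O2, 813 CPM with CeO2 and 613 CPM untreated in shControl. The shMLL1 values fell within the range of the shControl values. No measurement of DNA was analysed here, and the part of chromosome position in the DROSHA and SUB1 calls was not tested.

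**Figure D2:**
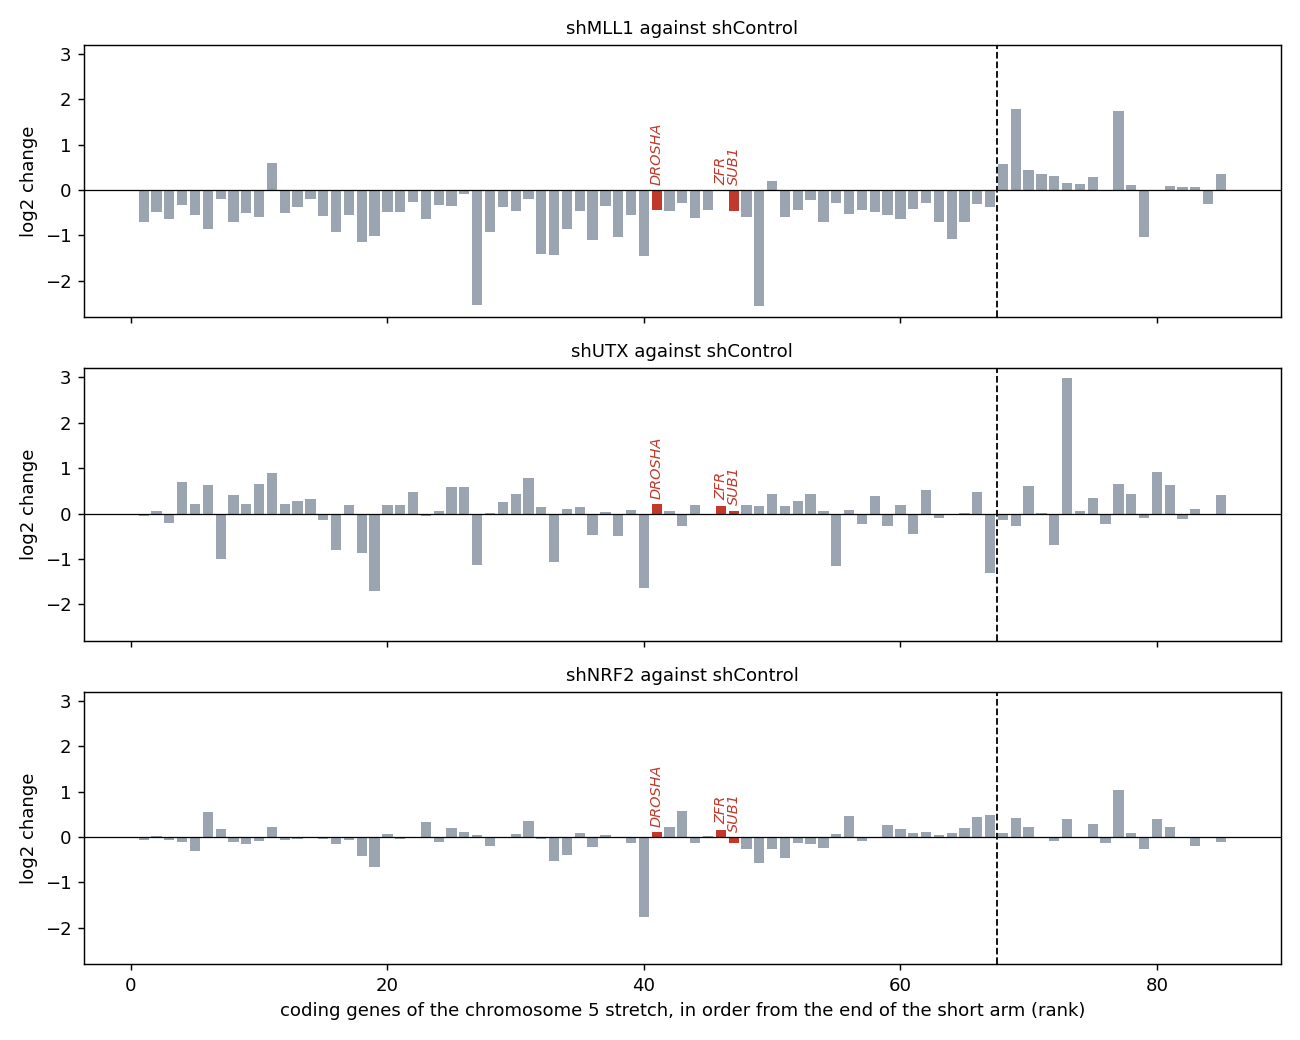
The log2 change of each coding gene of the chromosome 5 stretch in shMLL1, shUTX and shNRF2 against shControl, from top to bottom, with genes in order from the end of the short arm; members are red and the dashed line is the edge at 40 Mb. In shMLL1 nearly all genes left of the line are below 0, DROSHA and SUB1 among them, whereas ZFR is at -0.01; the lower panels show no such run.

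In cells with the hairpin against UTX, 3 members were lower than in shControl cells: MED16, a subunit of the Mediator tail, GTF2F1 and CIRBP, a cold-inducible RNA-binding protein. DROSHA was called higher by a narrow margin. The share of all entries called was 26.3% in this comparison, made up of 13.7% called lower and 12.6% called higher, and of the coding entries of the matched stretches 26.3% were called lower, so 3 of 10 is near that share too. The members' median log2 change was 0.00, as was that of all entries. All 3 lower genes lie on chromosome 19, as do POLR2E and SF3A2, which were not called. The median over 119 other coding genes there was -0.14 and 35 were called lower. This median was -0.18 on chromosome 11 (11 of 31 called lower) and 0.02 on chromosome 9 (28 of 103). On chromosome 5 it was 0.12 below 40 Mb (14 of 64) and 0.08 beyond (1 of 18). The changes of MED16 and CIRBP were lower than the median of their 10 nearest coding genes by more than 0.4 on the log2 scale (medians of -0.06 and -0.07), and that of GTF2F1 was nearer to the median of its 6 nearest (-0.23).

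MED16 stood at 205 CPM with H2O2, 220 CPM with CeO2 and 202 CPM untreated in shUTX, against 265 CPM with H2O2, 298 CPM with CeO2 and 341 CPM untreated in shControl. The 3 shUTX libraries lay below every shControl library. The log2 change was -0.50 ± 0.10, 1.41-fold lower, with an adjusted p of 0.00204 (edgeR). CIRBP stood at 271 CPM with H2O2, 324 CPM with CeO2 and 327 CPM untreated in shUTX, against 406 CPM with H2O2, 433 CPM with CeO2 and 498 CPM untreated in shControl. The groups did not overlap. Its log2 change was -0.51 ± 0.09, 1.43-fold lower, with an adjusted p of 0.000535 (edgeR). Both calls held in all 22 alternative settings.

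GTF2F1 stood at 556 CPM with H2O2, 577 CPM with CeO2 and 557 CPM untreated in shUTX, against 672 CPM with H2O2, 724 CPM with CeO2 and 779 CPM untreated in shControl. The shUTX libraries lay close together and below all shControl libraries. The log2 change was -0.34 ± 0.08, 1.27-fold lower, with an adjusted p of 0.00835 (edgeR). It was not called when only shUTX and shControl libraries were fitted (adjusted p 0.104, edgeR) or without the untreated shUTX library (adjusted p 0.0539, edgeR). SF3A2, a subunit of the SF3a complex of the U2 snRNP in the spliceosome, also had all 3 shUTX libraries below shControl. SF3A2 stood at 570 CPM with H2O2, 572 CPM with CeO2 and 562 CPM untreated in shUTX, against 622 CPM with H2O2, 655 CPM with CeO2 and 694 CPM untreated in shControl. Its log2 change was -0.18 with a 95% interval from -0.35 to -0.02 and an adjusted p of 0.0998 (edgeR), and it was -0.06 once a trend with transcript length was removed.

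DROSHA was higher in shUTX by 0.21 ± 0.07 on the log2 scale, 1.15-fold, with an adjusted p of 0.0496 (edgeR). The shUTX libraries held 501 CPM with H2O2, 464 CPM with CeO2 and 459 CPM untreated, against 463 CPM with H2O2, 455 CPM with CeO2 and 347 CPM untreated in shControl. The groups overlapped in CPM but not after the scaling used in the test. Scaled values were 511, 476 and 475 CPM in shUTX, against 453, 435 and 379 CPM in shControl, in the same order of treatments. Without the untreated shControl library the log2 change was 0.14 (adjusted p 0.131, edgeR). The call held in 3 of 22 alternative settings, and in 1 of the 12 of these that left out a library. Without the untreated shControl library 6 members were called in shUTX: MED16, GTF2F1 and CIRBP lower, and POLR2L (log2 change 0.27), SUB1 (0.22) and EXOSC3 (0.28) higher. In that setting 28.7% of all entries were called.

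In cells with the hairpin against NRF2, no member passed the threshold (edgeR), and DESeq2 and limma-voom also called none. Of the 10 members, 1 had an unadjusted p under 0.05, as did 2172 of the 10800 entries (edgeR). The members' median log2 change was -0.09, with 8 of the 10 below 0. The median was 0.01 over all entries and -0.05 over the coding entries of the matched stretches. The share of all entries called was 5.33%. The member with an unadjusted p under 0.05 was EXOSC3, a cap subunit of the RNA exosome. EXOSC3 stood at 134 CPM with H2O2, 140 CPM with CeO2 and 143 CPM untreated in shNRF2, against 160 CPM with H2O2, 141 CPM with CeO2 and 190 CPM untreated in shControl. The shNRF2 libraries lay close together around the low end of the shControl range. The log2 change was -0.27, with a 95% interval from -0.49 to -0.05 and an adjusted p of 0.161 (edgeR); without the CeO2 shControl library it was -0.39 with an adjusted p of 0.0315 (edgeR). ZFR was above shControl in all 3 shNRF2 libraries. It stood at 850 CPM with H2O2, 818 CPM with CeO2 and 883 CPM untreated in shNRF2, with the shControl values given above. Its log2 change was 0.16, with an interval from -0.01 to 0.33. The other 8 members had log2 changes from -0.17 (POLR2L) to 0.11 (DROSHA), and no interval among them reached beyond -0.47 or 0.27.

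**Figure D3:**
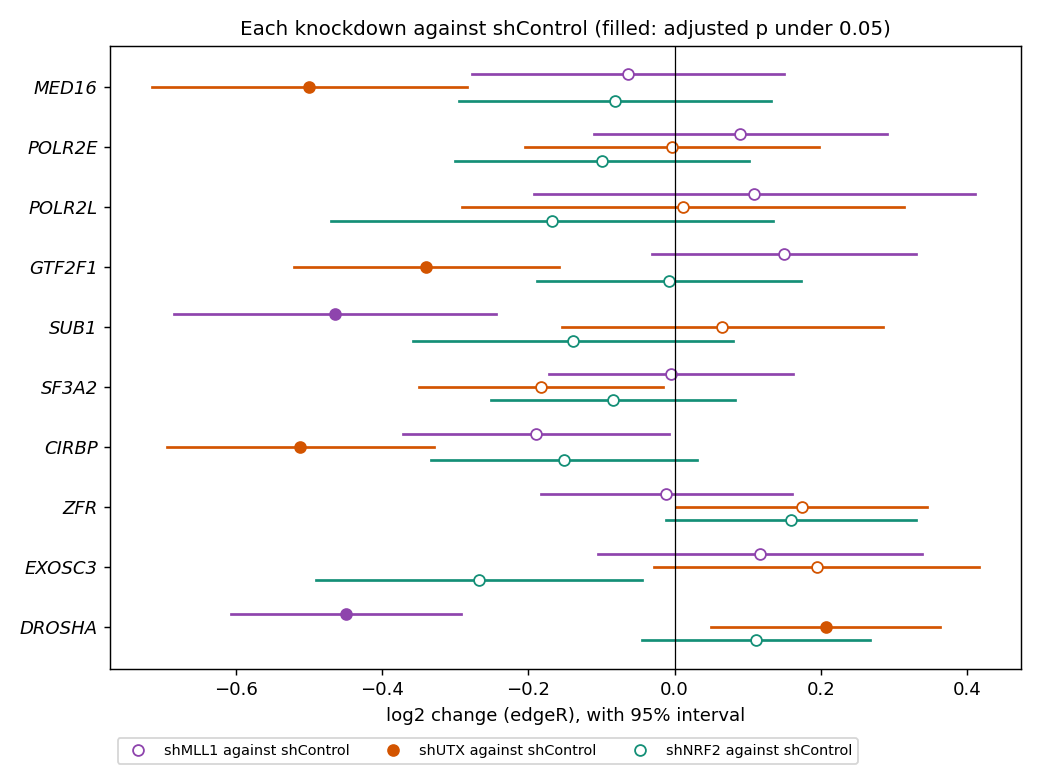
The edgeR log2 change of each member in shMLL1, shUTX and shNRF2 against shControl, with its 95% interval; filled points have an adjusted p under 0.05. DROSHA (-0.45) and SUB1 (-0.46) stand out in shMLL1, and MED16 (-0.50), CIRBP (-0.51) and GTF2F1 (-0.34) in shUTX; no point is filled for shNRF2.

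The knockdowns shared their shControl libraries, so they were also set against each other directly. Between shUTX and shMLL1, 5 members were called, beside 18% of all entries and 41.4% of the coding entries of the matched stretches. DROSHA was 1.58-fold higher in shUTX (log2 difference 0.66 ± 0.07, adjusted p 2.25e-05, edgeR) and SUB1 1.44-fold higher (0.53 ± 0.10, adjusted p 0.00225, edgeR). GTF2F1 (-0.49 ± 0.08), MED16 (-0.44 ± 0.10) and CIRBP (-0.32 ± 0.09) were lower in shUTX. The MED16 difference was lost without the untreated shUTX library. The CIRBP difference was called in 16 of 22 alternative settings, and among the left-out libraries it was lost without any one of the shMLL1 libraries or without the untreated or H2O2 shUTX library.

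Between shNRF2 and shMLL1, 2 members were called, beside 11.3% of all entries and 30.7% of the coding entries of the matched stretches. DROSHA was 1.48-fold higher in shNRF2 (log2 difference 0.56 ± 0.07, adjusted p 0.000157, edgeR), and EXOSC3 was lower (-0.39 ± 0.10, adjusted p 0.0266, edgeR). The EXOSC3 difference was lost without any one shMLL1 library and without the untreated or H2O2 shNRF2 library. Between shNRF2 and shUTX, 4 members were called, beside 23.4% of all entries and 41.9% of the coding entries of the matched stretches. MED16 (0.42 ± 0.10), CIRBP (0.36 ± 0.09) and GTF2F1 (0.33 ± 0.08) were higher in shNRF2 and EXOSC3 (-0.46 ± 0.10) was lower. Of these, the MED16 and GTF2F1 differences were lost without the untreated shUTX library or the CeO2 shNRF2 library, that of GTF2F1 also without the H2O2 shNRF2 library, that of CIRBP without the H2O2 shUTX library, and that of EXOSC3 without the CeO2 shUTX library. Neither POLR2E nor POLR2L, small subunits that RNA polymerases I, II and III have in common, was called between derivatives in the fit used for these values. With the length trend removed, POLR2L was higher in shUTX than in shControl (log2 change 0.23, adjusted p 0.0322, edgeR) and lower in shNRF2 than in shUTX (-0.25, adjusted p 0.0246, edgeR).

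The exposures were tested across the 4 derivatives. With H2O2, no member passed the threshold with edgeR, and 0% of the 10800 entries did, although 8 of the 10 members had an unadjusted p under 0.05, as did 2102 of all entries. DESeq2 called 2 members, SUB1 (log2 change -0.33) and CIRBP (-0.29), both lower, and limma-voom none. The members' median log2 change was -0.19, beside 0.02 over all entries and -0.07 over the coding entries of the matched stretches. The estimates were -0.35 for POLR2L, -0.32 for SUB1, -0.30 for EXOSC3 and -0.28 for CIRBP, and DROSHA (0.14) and ZFR (0.03) were the only members above 0. Without the untreated shControl library these estimates were smaller: -0.16 for POLR2L, -0.21 for SUB1, -0.23 for EXOSC3, -0.22 for CIRBP, 0.09 for DROSHA and -0.04 for ZFR, which left DROSHA alone above 0. The members' median was then -0.11, and 4 members had an unadjusted p under 0.05, as did 1370 of all entries. No member was called, against 43 of all entries (edgeR). With CeO2, no member was called by edgeR, DESeq2 or limma-voom, and edgeR called 0.0185% of all entries. Of the 10 members, 2 had an unadjusted p under 0.05 (EXOSC3, log2 change -0.29, and SUB1, -0.27), as did 1888 of the 10800 entries (edgeR). Without the untreated shControl library EXOSC3 was at -0.23 and SUB1 at -0.16, and no member was called (edgeR). The exposures share their untreated libraries.

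The length of the transcript moved with these values. Over 345 coding genes in these stretches, the log2 change correlated with length at a Spearman rho of 0.52 with H2O2 and 0.67 with CeO2, as a description over genes that share the same libraries. The median log2 change with H2O2 was -0.15 over the shortest 115 genes and 0.04 over the longest 115. Without the untreated shControl library the rho was 0.20 with H2O2 and 0.32 with CeO2, and the medians with H2O2 were -0.05 over the shortest genes and 0.01 over the longest. Among the members, POLR2L has the shortest transcript (892 bases) and DROSHA the longest (5305 bases). Once a smooth trend with length was removed from each library, the members' log2 changes with H2O2 lay between -0.23 (SUB1) and 0.15 (DROSHA), and those with CeO2 between -0.20 (SUB1) and 0.06 (DROSHA).

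**Figure D4:**
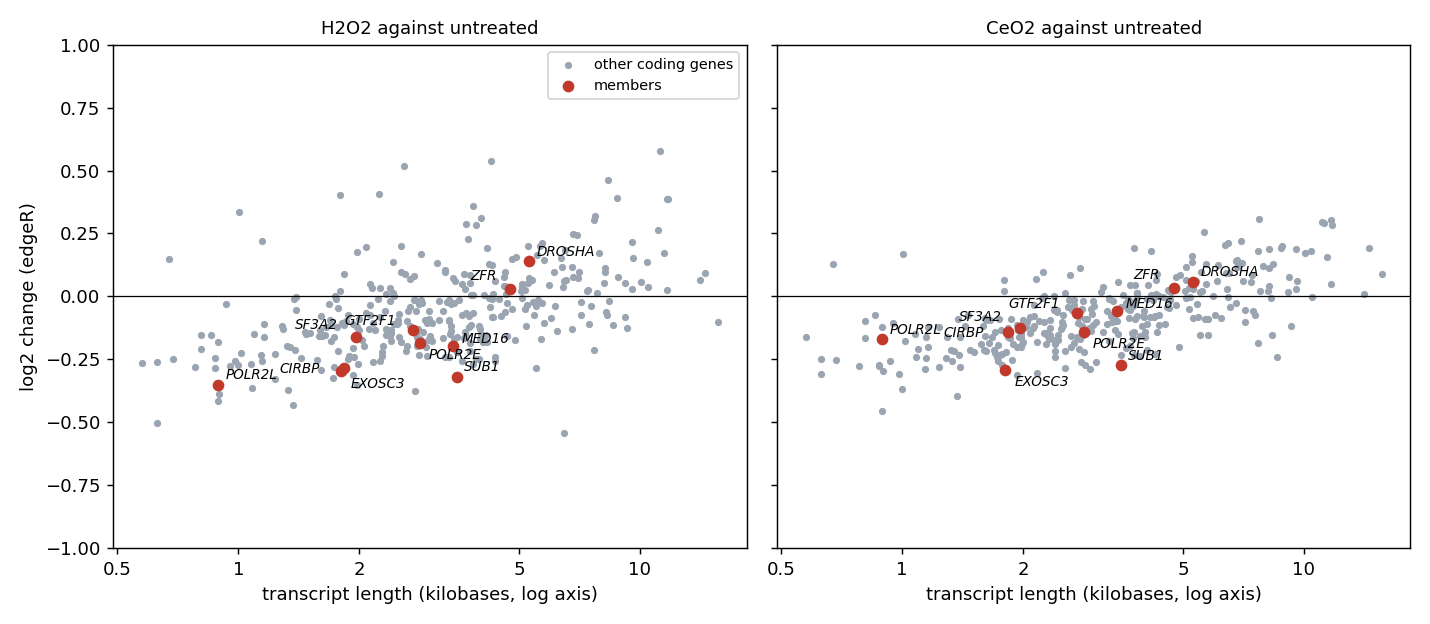
The edgeR log2 change with H2O2 (left) and CeO2 (right) against untreated cells, by transcript length on a log axis, for the 10 members (red) and the other coding genes of the matched stretches (grey). Short transcripts lie lower than long ones with both agents; SUB1 lies below most genes of its length, and DROSHA and ZFR lie at or above 0.

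The untreated shControl library, which stood apart by length, enters every one of these ratios in shControl. There, POLR2L stood at 225 CPM with H2O2 and 245 CPM with CeO2, against 367 CPM untreated, which gives ratios of 0.549 (95% counting interval 0.516 to 0.584) and 0.584 (0.549 to 0.621) after scaling. In the other derivatives the ratio with H2O2 was 0.855 in shMLL1, 0.892 in shUTX and 0.942 in shNRF2. With CeO2 the log2 ratio of POLR2L was -0.14 in shMLL1, 0.11 in shUTX, 0.16 in shNRF2 and -0.78 in shControl. For SUB1 the ratio with H2O2 was 0.806 in shMLL1, 0.868 in shUTX, 0.906 in shNRF2 and 0.664 in shControl. SUB1 was thus below 1 with H2O2 in all 4 derivatives, and it was also below 1 with CeO2 in all 4. DROSHA was above 1 with H2O2 in all 4, at 1.08 in shMLL1, 1.08 in shUTX, 1.06 in shNRF2 and 1.20 in shControl. With CeO2 it was at 1.05 in shMLL1, 1.00 in shUTX, 0.974 in shNRF2 and 1.15 in shControl. The intervals with CeO2 included 1 in shMLL1, shUTX and shNRF2. In bulk RNA, less RNA per cell and fewer cells that make it cannot be told apart. The intervals cover counting error only.

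**Figure D5:**
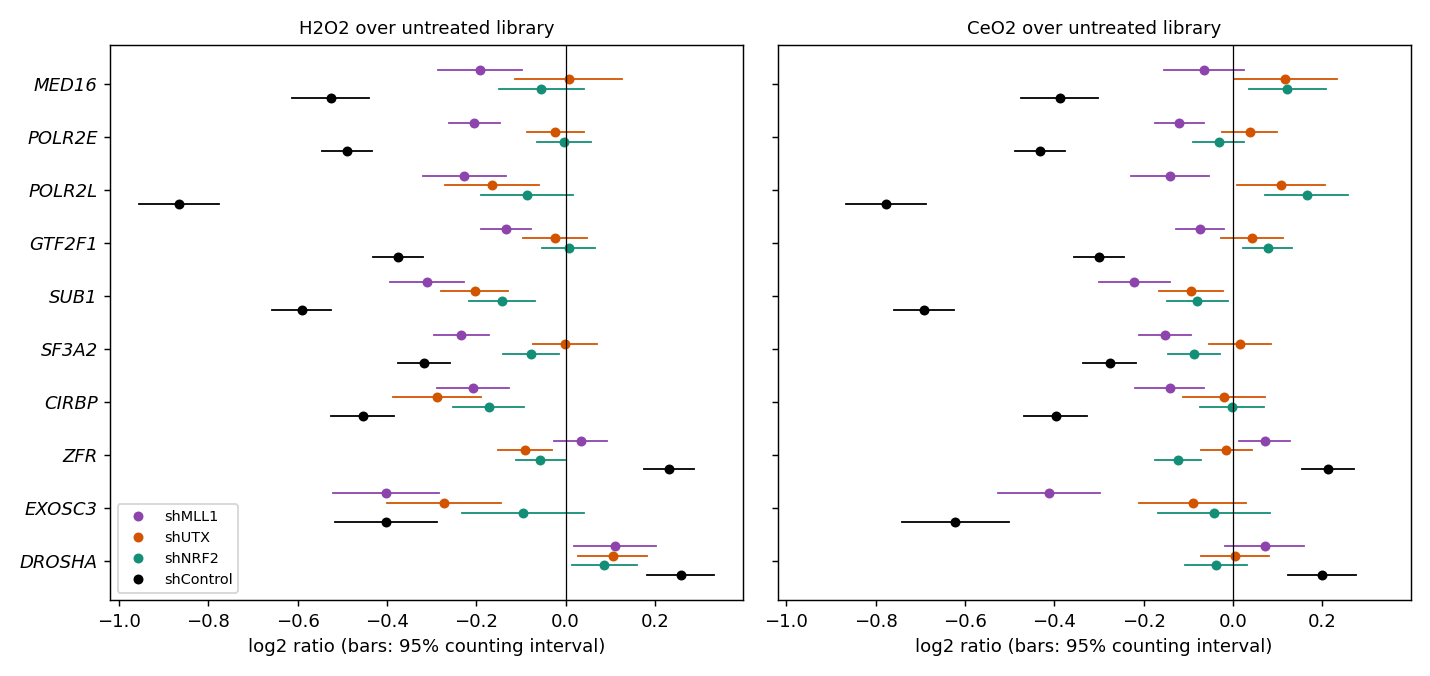
The log2 ratio of the exposed to the untreated library of each derivative for H2O2 (left) and CeO2 (right), with 95% counting intervals. The shControl points (black) lie apart from the others for most members, as for POLR2L at -0.87 with H2O2, while SUB1, CIRBP and EXOSC3 are below 0 in all 4 derivatives with both agents. The intervals of CIRBP and EXOSC3 include 0 with CeO2 in shUTX and shNRF2, and that of EXOSC3 also with H2O2 in shNRF2.

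A model with a term for exposure to either agent in each knockdown asked whether the response differed from that in shControl. It called 1 member in shMLL1 (0.648% of all entries), 5 in shUTX (14.4%) and 5 in shNRF2 (16.6%), each with a response above that in shControl. Of the coding entries of the matched stretches, 1.79% were called in shMLL1, 26.9% in shUTX and 31.7% in shNRF2. POLR2L was called in each, with log2 differences of 0.64 ± 0.13 in shMLL1, 0.79 ± 0.13 in shUTX and 0.86 ± 0.13 in shNRF2 (adjusted p 0.0315, 0.000509 and 0.000208, edgeR). MED16, POLR2E, GTF2F1 and SUB1 were called in shUTX and in shNRF2. All 3 contrasts rest on the single untreated shControl library and share it, and each knockdown has 1 untreated library too. With the length trend removed, none of these calls was left: the POLR2L differences were 0.13, 0.14 and 0.12, and only ZFR in shNRF2 passed, with a lower response (-0.34, adjusted p 0.0417, edgeR).

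Other genes of the same processes in the matched stretches were read from a list of 25, of which 22 passed the filter (not TAF1L, CELF5 and ZFR2). In shMLL1, 4 of the 22 were lower: ICE1 (log2 change -0.49 ± 0.10), a subunit of the little elongation complex that serves small nuclear RNA genes, MED10 (-0.47 ± 0.10), a subunit of the Mediator middle, TENT4A (-0.34 ± 0.07), a noncanonical poly(A) polymerase, and NSUN2 (-0.27 ± 0.07), an RNA cytosine methyltransferase. All 4 lie on chromosome 5 below 40 Mb. PAIP1, a partner of the poly(A)-binding protein and the listed gene beyond that edge, had a log2 change of 0.06. Another 3 were higher: PHRF1 (0.41 ± 0.08), DUS3L (0.37 ± 0.10), a dihydrouridine synthase, and REXO1 (0.33 ± 0.07), an RNA exonuclease homologue. Of the coding entries of the matched stretches, 22.3% were called lower and 7.67% higher in this comparison. The list's median log2 change was 0.05.

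In shUTX, 6 of the 22 were higher and none lower: MEX3D (0.53 ± 0.09), an RNA-binding protein, NSUN2 (0.48 ± 0.07), REXO1 (0.31 ± 0.07), POLR1E (0.28 ± 0.09), a subunit of RNA polymerase I, ZCCHC7 (0.28 ± 0.09), a partner of the nuclear exosome, and PHRF1 (0.26 ± 0.08). In this comparison 12.6% of all entries and 17.9% of the coding entries of the matched stretches were called higher. The list's median was 0.07. In shNRF2, ELAVL2, an RNA-binding protein known from neurons, was lower (-0.53 ± 0.10), and none was higher, where 6.14% of the coding entries of the matched stretches were called lower. None of the 7 listed splicing genes was called in any knockdown against shControl, and no listed gene was called with H2O2 or CeO2 (edgeR). In the direct comparisons, 5 listed genes were higher and 1 lower in shUTX than in shMLL1, 3 higher and 1 lower in shNRF2 than in shMLL1, and 1 higher and 6 lower in shNRF2 than in shUTX. Of the coding entries of the matched stretches, 23.3% were called higher and 18.2% lower in shUTX than in shMLL1. For shNRF2 against shMLL1 these shares were 20.2% and 10.5%, and for shNRF2 against shUTX 21.2% and 20.7%.

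The genes most like DROSHA over the 12 libraries, by Pearson's r of log2 CPM among 344 coding genes of the matched stretches, were OTULIN (r = 0.97), NIPBL (0.97) and ICE1 (0.96). All 3 are on chromosome 5 below 40 Mb. Those most like CIRBP were UBXN6 (0.97) and MED16 (0.93) on chromosome 19 and ARHGEF39 (0.94) on chromosome 9. The 12 points share their derivatives and treatments, so these are descriptions.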

How the data were processed

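Reads of HaCaT total RNA were processed with Trimmomatic 0.39, HISAT2 2.2.1, SAMtools 1.12 and HTSeq 0.11.1 on GRCh38, per the submitters' processing notes; neither labels nor headers name the annotation or the strand setting. The authors deposited raw counts per Ensembl gene in 2 tables, which share the untreated libraries and differ in 1 cell; the untreated counts of the H2O2 table were used. Of 61498 identifiers, 61399 matched a symbol and 58298 GENCODE 29, the source of coordinates, types and transcript lengths.

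The members and lists were chosen with earlier results of these data known. A hidden Markov model with 2 states, run over 802 everyday genes without the members, marked the matched stretches (probability of at least 30 CPM 0.95 inside and 0.25 outside, switch 0.02), a check made after the data were seen. The 10800 entries that reached 1 CPM in 3 or more libraries were scaled by TMM (factors 0.914 to 1.04) and fitted with edgeR 4.0.16 in R 4.3.3 (quasi-likelihood, two-sided, Benjamini-Hochberg over all 10800, threshold 0.05). The model of derivative and treatment left 6 residual degrees of freedom. The model with exposure by knockdown left 3 and is exploratory. Printed CPM are counts over the library total, without TMM. Scripts were tested on simulated data in which 200 entries differed. Of 1.5-fold changes, 42% were recovered for shMLL1 against shControl and 53% for H2O2 against untreated. Of 2-fold changes, 72% and 78% were recovered, with 4 and 6 false calls in the 2 comparisons.

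Alternatives were RLE and upper-quartile scaling, no filter, a 5 CPM filter, DESeq2 1.42.0, limma-voom (limma 3.58.1), the untreated counts of the CeO2 table, a length trend removed from each library (lowess, span 0.5, 345 genes), only the libraries compared, 1 factor dropped, and each library left out. Ratios of 2 libraries have exact conditional binomial 95% intervals. All members are named, other listed genes where called in a knockdown against shControl, and for the 2 members with the smallest p in a knockdown the 3 genes most like them.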

Additional observations from a re-analysis of the deposited data

Results flagged for a closer look

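The response to exposure differed from that in shControl, by the test of that difference, for POLR2L in shMLL1 (log2 difference 0.64), for MED16 (0.52), POLR2E (0.47), POLR2L (0.79), GTF2F1 (0.35) and SUB1 (0.49) in shUTX, and for MED16 (0.49), POLR2E (0.44), POLR2L (0.86), GTF2F1 (0.38) and SUB1 (0.53) in shNRF2. All are positive, and all are set against the same untreated shControl library. After removal of the trend with transcript length the 11 differences lay between 0.06 and 0.34 and none passed the threshold of the adjusted p (edgeR). Each combination of derivative and treatment has 1 library, so no library could be checked as a stray value within its combination.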

How the results depend on the processing

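No paired analysis was possible because each combination of derivative and treatment has 1 library and the labels give no replicate numbers. No member turned its direction past the threshold under any alternative. Counts of members called moved by more than 1.5 times as follows. In shMLL1 1 member was called without the treatment term, and in shUTX 2 with only the libraries compared. Between shNRF2 and shMLL1, 4 were called with only the libraries compared and 1 without the treatment term, and between shNRF2 and shUTX 7 with only the libraries compared. With no filter, 4 were called with H2O2 and 1 with CeO2, and with DESeq2, 2 with H2O2. With the length trend removed, the changed response was called for 0 members in shMLL1, 0 in shUTX and 1 in shNRF2.

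With each library left out in turn, the number of members called ran from 1 to 5 in shMLL1, 2 to 6 in shUTX, 0 to 1 in shNRF2, 0 to 0 with H2O2 and with CeO2, 3 to 7 between shUTX and shMLL1, 1 to 6 between shNRF2 and shMLL1, and 2 to 6 between shNRF2 and shUTX. For the changed response it ran from 0 to 2 in shMLL1, 3 to 8 in shUTX and 4 to 8 in shNRF2; the untreated libraries whose omission removes the term gave no value. The highest counts between derivatives (5 in shMLL1, 6 in shUTX) came without the untreated shControl library, and the highest of the changed response without the H2O2 shControl library.

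Over all entries, leaving out a library moved the calls from 1320 to between 667 and 1941 in shMLL1, from 2840 to between 1931 and 3088 in shUTX, and from 576 to between 257 and 829 in shNRF2. The ranges were 0 to 43 with H2O2 and 0 to 29 with CeO2, 1170 to 2989 between shUTX and shMLL1 (1939 with all libraries), 598 to 2252 between shNRF2 and shMLL1 (1220) and 1652 to 3604 between shNRF2 and shUTX (2529). For the changed response they were 4 to 679 in shMLL1 (70), 816 to 2111 in shUTX (1554) and 1317 to 2330 in shNRF2 (1794). Other settings that moved them by more than 1.5 times were only the libraries compared (1426 against 2840 in shUTX, 154 against 576 in shNRF2, 3 against 0 with H2O2, 2955 against 1939 between shUTX and shMLL1, 1991 against 1220 between shNRF2 and shMLL1, 4351 against 2529 between shNRF2 and shUTX), no treatment term (328 against 576 in shNRF2), no filter (907 in shNRF2, 651 with H2O2, 543 with CeO2 and 218 for the changed response in shMLL1, against 576, 0, 2 and 70), a 5 CPM filter (33 against 70 for that response) and DESeq2 (152 with H2O2, 44 with CeO2, and for the changed response 676 against 1554 in shUTX and 686 against 1794 in shNRF2). The 2 entries called with CeO2 became 0 with a 5 CPM filter, limma-voom, the length trend removed, only the libraries compared or no derivative term. Of 1760 member values in the knockdown, exposure and direct comparisons, 45 lost the call and 39 gained it. The causes were not tested. With 1 hairpin-carrying line per target and 1 library per combination, an effect of the target cannot be told apart from one of the line.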
